A study of Homo sapiens with 6 samples.

Results

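The 8 genes described here make hyaluronan, break it down or bind it at the cell surface: the hyaluronan synthases HAS2 and HAS3, the receptor CD44, the hyaluronan-depolymerising proteins CEMIP and CEMIP2, and the hyaluronidases HYAL1, HYAL2 and HYAL3. They are 8 of the 69292 genes counted, and all 8 were among the 21223 genes with enough reads to be tested. The set was chosen by the measured HAS2 counts, which differed between the 2 drug-resistant lines, with the other 7 added by function. The difference between those lines is therefore given below as a description with no test. RNA sequencing covered 6 libraries in 3 groups of 2, all from the human triple-negative, mesenchymal breast cancer cell line MDA-MB-231. One group was MDA-MB-231/DRRIDA, kept in 30 µM ridaforolimus for months until resistant. Another was MDA-MB-231/DREVE, kept in 20 µM everolimus in the same way. The third was the parental line, to which the protocol gives no drug and the treatment label gives DMSO. Each resistant line was a single derivative and had its drug in the medium, so resistance, drug exposure and drift in culture cannot be told apart.

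Hyaluronan is a very long, unsulfated sugar chain that synthases in the plasma membrane build from UDP-glucuronic acid and UDP-N-acetylglucosamine and push out of the cell as it grows. It is cut into fragments by hyaluronidases and by CEMIP-type proteins and is finally degraded in lysosomes, and its length decides much of how cells respond to it. CD44 is its main surface receptor and is typically abundant on mesenchymal breast cancer cells. Everolimus and ridaforolimus are rapamycin analogs that inhibit mTOR, the kinase that couples growth to nutrients. They differ in the group attached at one position of the ring, a hydroxyethyl ether in everolimus and a dimethylphosphinate in ridaforolimus. Their doses also differed here, so the lines are set side by side and the compounds are not compared.

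Total counts ranged from 13134567 to 15556246 per library. The first principal component of log2 expression (36.1% of the variance) set both ridaforolimus-resistant libraries apart from the other 4, and the second (24.6%) had everolimus-resistant replicate 2 at one end (-59.8) and parental replicate 1 at the other (48.4). Mitochondrial genes took 2.42% and 3.19% of counts in ridaforolimus-resistant cells, 2.38% and 2.15% in everolimus-resistant cells and 4.38% and 3.0% in parental cells. All 4 markers of the mesenchymal line (VIM, AXL, MSN, CAV1) were above 1 CPM (reads scaled to library size) in every group, and of 5 genes low or absent in this line only ERBB2 and EPCAM reached 1 CPM. ERBB2 was well above it, at 44.3 to 62.9 CPM over the libraries. EPCAM had 2.52 and 1.97 CPM in ridaforolimus-resistant cells, 1.01 and 1.52 in everolimus-resistant cells, and 4.43 and 5.35 in parental cells. Of fibroblast, leukocyte and endothelial markers, the summed levels stayed at or below 16.4 CPM in every library. LUM and CD3E had no count, but other markers were detected. The fibroblast marker COL1A1 had 5.14 to 15.6 CPM over the libraries and the endothelial marker PECAM1 0.457 to 11.5. Endothelial KDR reached 4.89 CPM and the leukocyte marker CD14 2.14. The labels do not say that libraries of a group came from separate cultures, so p-values measure the spread between these libraries, which may be technical. In bulk RNA, fewer cells that make a transcript and less transcript per cell cannot be told apart.

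CD44 was by far the most abundant of the 8 transcripts and the rank of HAS2 differed most between the groups. Per kilobase of exon, CD44 averaged 36.2 CPM in ridaforolimus-resistant cells, 20.8 in everolimus-resistant cells and 15.4 in parental cells. CEMIP2 came next in each group, at 4.45 CPM per kilobase in ridaforolimus-resistant, 4.94 in everolimus-resistant cells and 5.48 in parental cells. HYAL2 followed, at 3.55 in ridaforolimus-resistant, 3.43 in everolimus-resistant cells and 2.97 in parental cells. In ridaforolimus-resistant cells CEMIP2 and HYAL2 overlapped, as did HYAL3, HAS3, CEMIP and HYAL1, each with its neighbour in the order. HAS2 was last there, at 0.248 CPM per kilobase, below both libraries of HYAL1. In everolimus-resistant cells HAS2 averaged 2.51 CPM per kilobase and overlapped its neighbours HYAL2 and HYAL3. In parental cells it averaged 1.11 CPM per kilobase and overlapped HAS3 (1.20) and HYAL3 (1.08). CEMIP and HYAL1 were the lowest pair in both everolimus-resistant and parental cells, between 0.640 and 0.790 CPM per kilobase.

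**Figure D1:**
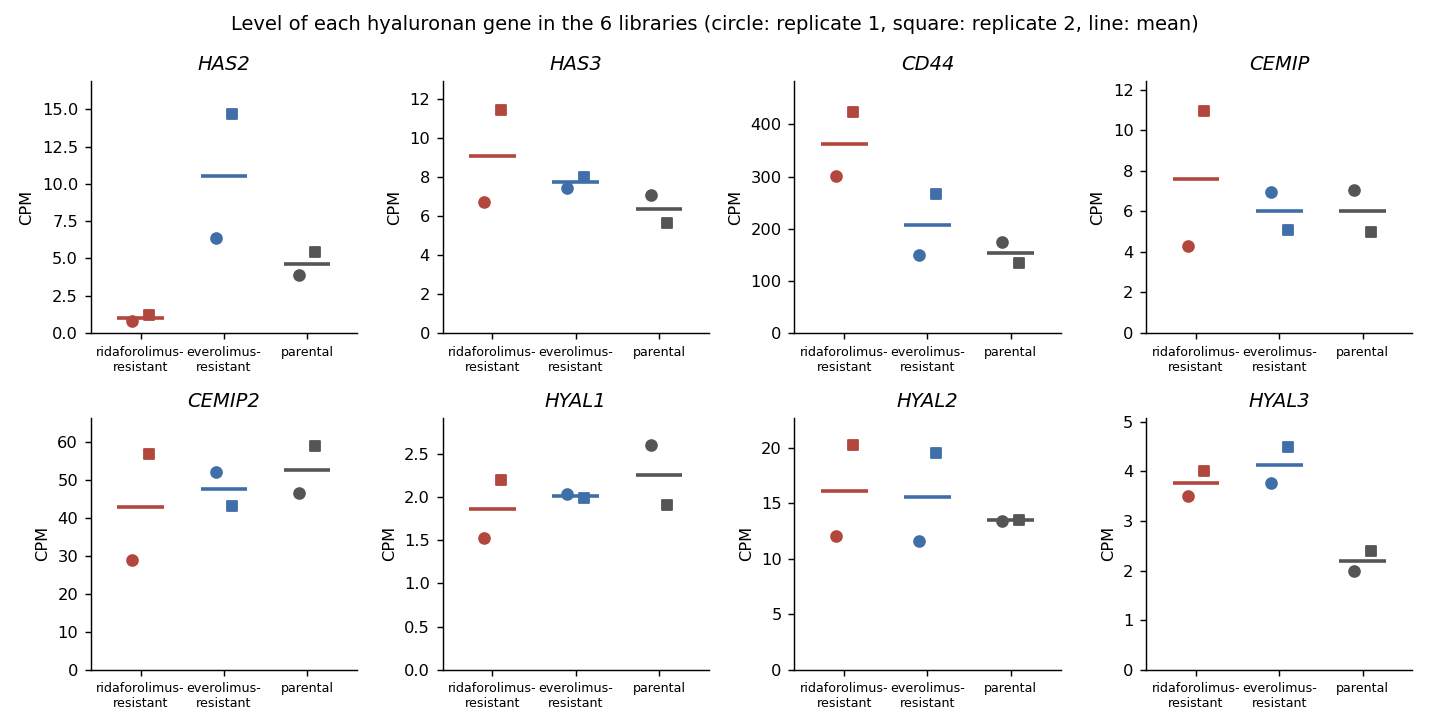
Level of each gene in CPM (y axis, linear from 0) in the 2 libraries of ridaforolimus-resistant, everolimus-resistant and parental cells; points are libraries and lines are group means. HAS2 is lowest in both ridaforolimus-resistant libraries (0.838 and 1.24 CPM) and highest in both everolimus-resistant ones (6.37 and 14.7 CPM), and HYAL3 is higher in all 4 resistant libraries than in the parental pair.

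HAS2 (ENSG00000170961; GRCh38 chromosome 8, 121612116 to 121641390, minus strand), the synthase that makes most long-chain hyaluronan in many mesenchymal cells, lay on opposite sides of parental cells in the 2 resistant lines. It had 0.838 and 1.24 CPM (11 and 17 reads) in ridaforolimus-resistant cells, 6.37 and 14.7 (88 and 222 reads) in everolimus-resistant cells, and 3.90 and 5.42 (51 and 77 reads) in parental cells. Neither resistant line overlapped parental cells. Means were 1.04 ± 0.285 CPM in ridaforolimus-resistant cells, 10.5 ± 5.87 in everolimus-resistant cells and 4.66 ± 1.08 in parental cells (SD, n = 2 each). Over the pooled reads of each group, exact 95% Poisson intervals, which cover counting error only, were 0.694 to 1.51 CPM in ridaforolimus-resistant cells, 9.56 to 12.0 in everolimus-resistant cells and 3.91 to 5.58 in parental cells.

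Against parental cells, the log2 fold change of HAS2 was -2.15 ± 0.50 (SE; 95% interval -3.31 to -1.0) in ridaforolimus-resistant cells, with an adjusted p of 0.131 in edgeR's quasi-likelihood test. In everolimus-resistant cells it was 1.17 ± 0.43 (0.18 to 2.17), with an adjusted p of 0.525. Neither passed the threshold of 0.05 over all genes, and both share libraries with the difference that led to HAS2 being chosen. In ridaforolimus-resistant cells the call depended on the setting: DESeq2 gave -2.17 with an adjusted p of 0.00821, edgeR gave 0.0391 without everolimus-resistant replicate 1 and 0.0495 without replicate 2, and over all 14 settings tried the adjusted p ran from 8.34e-05 to 0.592. In everolimus-resistant cells the size rested on replicate 2: without that library the log2 fold change was 0.44, without parental replicate 1 it was 0.95, and the adjusted p ranged from 0.102 to 1.00 over the settings.

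The placement of HAS2, with both everolimus-resistant libraries above and both ridaforolimus-resistant libraries below the parental pair, was shared by 526 of the 21223 genes tested (2.48%). The reverse placement was found for 588 genes (2.77%). These counts are a description of the libraries, since the placement of HAS2 is what drew attention to it.

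**Figure D2:**
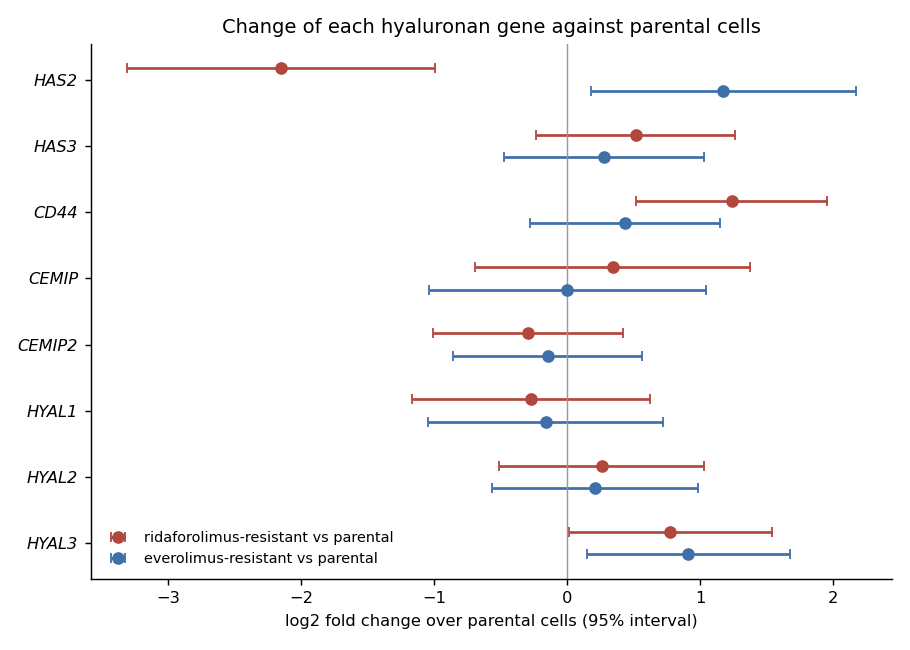
Log2 fold change of each gene over parental cells (x axis) with its 95% interval from edgeR, for ridaforolimus-resistant and everolimus-resistant cells; both comparisons use the same 2 parental libraries. The intervals of HAS2 lie on opposite sides of 0, those of HYAL3 both lie just above 0, and that of CD44 lies above 0 in ridaforolimus-resistant cells (0.52 to 1.96).

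HAS3 (ENSG00000103044; chromosome 16, 69105564 to 69118719, plus strand), which makes shorter hyaluronan chains, did not pass the test in either line. It had 6.71 and 11.5 CPM in ridaforolimus-resistant cells, 7.46 and 8.0 in everolimus-resistant cells, and 7.11 and 5.63 in parental cells. The everolimus-resistant pair lay above the parental pair, and the ridaforolimus-resistant pair overlapped it. On the log2 scale it stood at 0.51 ± 0.33 (95% interval -0.24 to 1.27; adjusted p = 0.509) in ridaforolimus-resistant and 0.28 ± 0.33 (-0.47 to 1.03; adjusted p = 0.850) in everolimus-resistant cells. HAS1, the remaining synthase, was between 0.132 and 1.01 CPM in all 6 libraries, with log2 fold changes over parental cells of -0.47 ± 0.91 (adjusted p = 0.852) in ridaforolimus-resistant and -0.15 ± 0.87 (adjusted p = 0.976) in everolimus-resistant cells.

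The split of synthase transcripts was lowest for HAS2 in ridaforolimus-resistant cells. Of synthase reads per kilobase of exon, HAS2 took 11.5% and 11.4% in ridaforolimus-resistant cells, 44.9% and 69.0% in everolimus-resistant cells and 35.1% and 50.8% in parental cells. The ridaforolimus-resistant share lay below both other groups, while the everolimus-resistant and parental shares overlapped. HAS3 took 72.9% and 83.6% in ridaforolimus-resistant cells, 41.7% and 29.8% in everolimus-resistant cells, and 50.7% and 41.8% in parental cells. Of HAS2 and HAS3 reads alone, HAS2 made up 11.1% (exact 95% binomial interval 5.68 to 19.0) and 9.77% (5.80 to 15.2) in ridaforolimus-resistant cells, 46.1% (38.9 to 53.4) and 64.7% (59.4 to 69.8) in everolimus-resistant cells, and 35.4% (27.6 to 43.8) and 49.0% (41.0 to 57.1) in parental cells. The counting intervals of ridaforolimus-resistant and parental libraries did not overlap, but they leave out the spread between libraries. HAS2 was picked for its difference between the resistant lines, so its share is not independent of that choice. The shares were not tested over libraries.

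**Figure D3:**
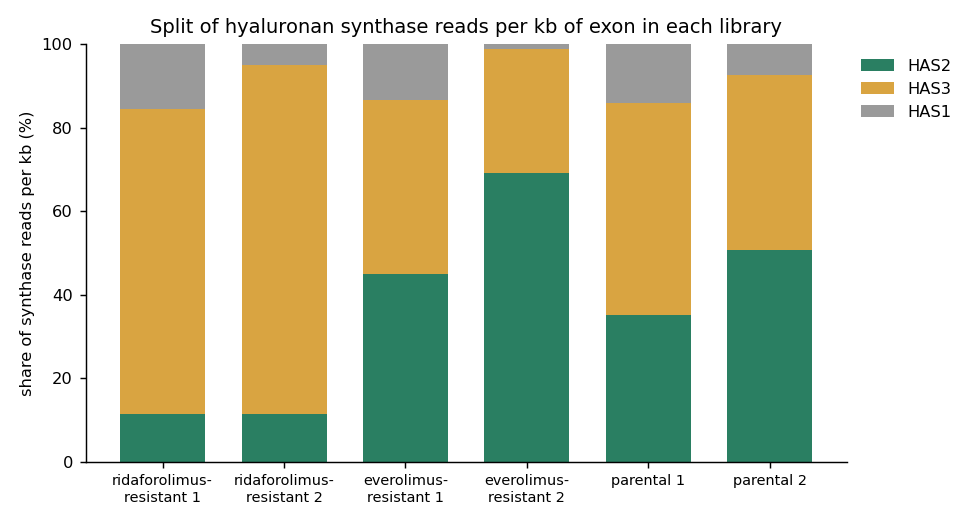
Share of synthase reads per kilobase of exon (y axis, percent) taken by HAS2, HAS3 and HAS1 in each of the 6 libraries. HAS3 takes 72.9% and 83.6% in the ridaforolimus-resistant libraries, and HAS2 takes its largest share, 69.0%, in everolimus-resistant replicate 2.

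HAS2-AS1, the antisense transcript whose first part overlaps HAS2 and which has been tied to HAS2 transcription, was near the detection limit. It had 0.305 and 1.39 CPM in ridaforolimus-resistant cells, 1.67 and 2.51 in everolimus-resistant cells, and 1.15 and 1.48 in parental cells. The everolimus-resistant libraries were above both others, and the ridaforolimus-resistant pair overlapped the parental pair. The log2 fold changes of -0.62 ± 0.65 in ridaforolimus-resistant cells (adjusted p = 0.704) and 0.67 ± 0.59 in everolimus-resistant cells (adjusted p = 0.795) did not pass the test. The genes share 201 exonic bases, 4.80% of the HAS2 exons. The kit keeps the strand, but the strand setting of the counting is not given in the sources used here, so reads in that overlap cannot be assigned to one strand.

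The protein-coding genes nearest to HAS2 on chromosome 8 that were tested lie 799 kb or more away, and none of the 6 named by nearness passed the test in either line. In ridaforolimus-resistant cells their log2 fold changes over parental cells were all below 0, at -0.42 for MRPL13, -0.13 for MTBP, -0.41 ± 0.20 for SNTB1, -0.36 for ZHX2, -0.45 ± 0.21 for DERL1 and -0.33 for TBC1D31. The lowest adjusted p among them was 0.363, for DERL1. In everolimus-resistant cells SNTB1 (0.28) and MTBP (0.29) lay above 0 and the other 4 lay between -0.23 and -0.10. The value of HAS2 was outside the range of its neighbours in both lines. HAS2 was picked for its difference between the resistant lines and the neighbours by distance only, so this placement is not independent of that choice.

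**Figure D4:**
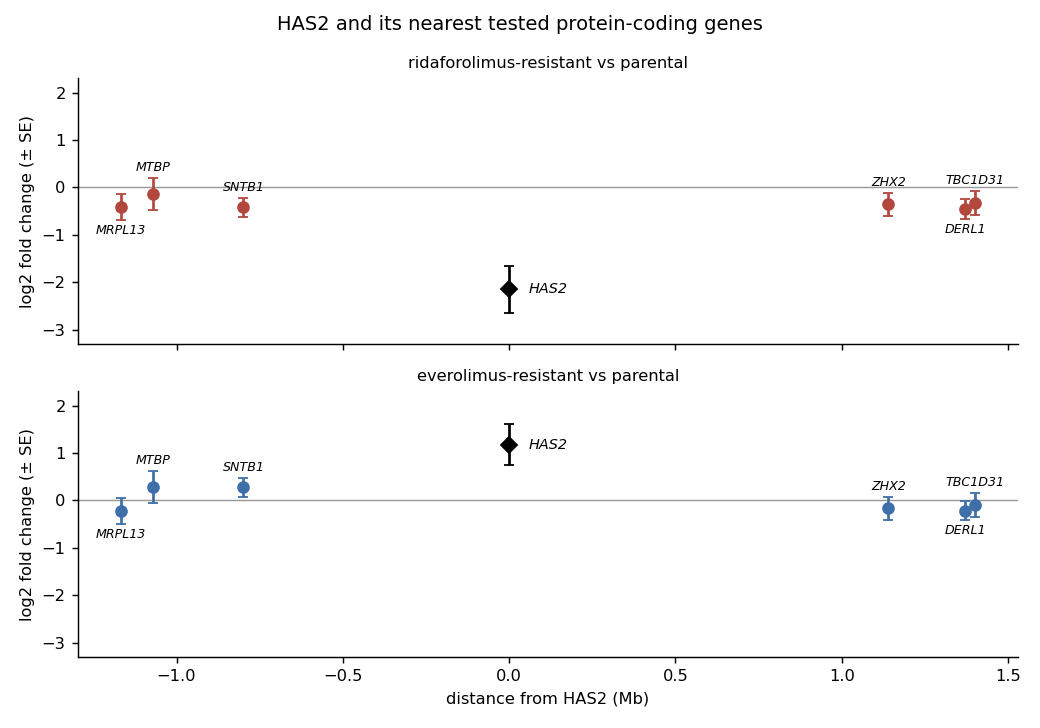
Log2 fold change over parental cells (y axis, ± SE) of HAS2 and the 3 nearest tested protein-coding genes on each side, against distance from HAS2 in Mb; top, ridaforolimus-resistant; bottom, everolimus-resistant. HAS2 is at -2.15 in ridaforolimus-resistant and 1.17 in everolimus-resistant cells, while the neighbours lie between -0.45 and 0.29.

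CD44 (ENSG00000026508; chromosome 11, 35138870 to 35232402, plus strand), the receptor through which cells bind and take up hyaluronan, was highest in ridaforolimus-resistant cells, where HAS2 was lowest. It had 301 and 425 CPM (3944 and 5812 reads) in ridaforolimus-resistant cells, 150 and 266 (2072 and 4024 reads) in everolimus-resistant cells, and 174 and 134 (2282 and 1897 reads) in parental cells. Both ridaforolimus-resistant libraries were above all 4 others, and the everolimus-resistant pair overlapped the parental pair. Means were 363 ± 87.7 CPM in ridaforolimus-resistant cells, 208 ± 82.0 in everolimus-resistant cells and 154 ± 28.8 in parental cells (SD, n = 2 each).

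CD44 had a log2 fold change in ridaforolimus-resistant over parental cells of 1.24 ± 0.31 (95% interval 0.52 to 1.96), with an adjusted p of 0.155 in edgeR. DESeq2 gave 1.23 ± 0.35 with an adjusted p of 0.0190, and over the 14 settings the adjusted p ran from 3.55e-05 to 0.663. In everolimus-resistant cells the log2 fold change was 0.43 ± 0.31 (-0.28 to 1.15; adjusted p = 0.738), and without everolimus-resistant replicate 2 it was -0.04. The counts are per gene, so they do not show which CD44 splice forms the cells carried.

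HYAL3 (ENSG00000186792; chromosome 3, 50292831 to 50299468, minus strand) is a hyaluronidase family member with weak activity of its own. Among the tested CEMIP and HYAL genes, only HYAL3 had libraries apart from parental cells in both lines. It had 3.51 and 4.02 CPM in ridaforolimus-resistant cells, 3.77 and 4.49 in everolimus-resistant cells, and 1.99 and 2.39 in parental cells. All 4 resistant libraries lay above the parental pair. The log2 fold changes were 0.78 ± 0.33 (95% interval 0.01 to 1.54) in ridaforolimus-resistant and 0.91 ± 0.33 (0.15 to 1.67) in everolimus-resistant cells. In edgeR the unadjusted p was 0.0476 and the adjusted p 0.340 in ridaforolimus-resistant cells, and 0.0245 and 0.517 in everolimus-resistant cells. Both comparisons use the same 2 parental libraries, so the values are not independent. HYAL3 shares 248 exonic bases, 12.2% of its exons, with NAA80 on the same strand, so some of its reads are of uncertain origin.

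HYAL2 (ENSG00000068001; chromosome 3, 50317790 to 50322906, minus strand), a membrane-anchored enzyme that cuts long hyaluronan at the cell surface, had 12.0 and 20.2 CPM in ridaforolimus-resistant cells, 11.6 and 19.6 in everolimus-resistant cells, and 13.4 and 13.5 in parental cells. Replicate 2 was above and replicate 1 below the parental pair in both lines. Its log2 fold changes were 0.26 ± 0.34 (95% interval -0.51 to 1.03; adjusted p = 0.771) in ridaforolimus-resistant and 0.21 ± 0.34 (adjusted p = 0.899) in everolimus-resistant cells. HYAL2 shares 509 exonic bases (11.2%) with TUSC2 on the same strand.

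HYAL1 (ENSG00000114378; chromosome 3, 50299889 to 50312381, minus strand), the lysosomal hyaluronidase, had 1.52 and 2.19 CPM in ridaforolimus-resistant cells, 2.03 and 1.98 in everolimus-resistant cells, and 2.6 and 1.90 in parental cells. All 3 groups overlapped. HYAL1 had log2 fold changes of -0.27 ± 0.39 (95% interval -1.16 to 0.62; adjusted p = 0.794) in ridaforolimus-resistant and -0.16 ± 0.38 (adjusted p = 0.937) in everolimus-resistant cells. The 3 hyaluronidase genes lie in 1 short stretch of chromosome 3, and of these HYAL3 alone did not overlap parental cells. Of hyaluronidase reads per kilobase over the 3 genes, HYAL3 took 35.5% and 27.8% in ridaforolimus-resistant cells, 36.7% and 31.0% in everolimus-resistant cells and 20.5% and 24.8% in parental cells. HYAL2 had the largest share in every library, between 50.5% and 62.5%. Of the other hyaluronidase genes, HYAL4 had 2 and 0 reads in ridaforolimus-resistant cells, 21 and 7 in everolimus-resistant cells and 2 and 3 in parental cells, too few to be tested. SPAM1, the sperm hyaluronidase, had no read in any library, which allows up to 3 reads.

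CEMIP (ENSG00000103888; chromosome 15, 80779343 to 80951776, plus strand), which binds hyaluronan and is needed for its breakdown in fibroblasts, varied more within the ridaforolimus-resistant group than between groups. It had 4.27 and 11 CPM in ridaforolimus-resistant cells, 6.95 and 5.09 in everolimus-resistant cells, and 7.03 and 5.00 in parental cells. Its log2 fold changes were 0.34 ± 0.45 (95% interval -0.69 to 1.38; adjusted p = 0.775) in ridaforolimus-resistant and 0.00 ± 0.45 (-1.04 to 1.04; adjusted p = 1.00) in everolimus-resistant cells. The value in ridaforolimus-resistant cells was -0.48 without ridaforolimus-resistant replicate 2.

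CEMIP2 (ENSG00000135048; chromosome 9, 71683366 to 71816690, minus strand), a membrane protein of the same family described as a cell-surface hyaluronidase, had 29 and 56.8 CPM in ridaforolimus-resistant cells, 52.0 and 43.2 in everolimus-resistant cells, and 46.6 and 58.8 in parental cells. All 3 groups overlapped, and the ridaforolimus-resistant libraries were again the farthest apart. Over parental cells the log2 fold changes were -0.30 ± 0.31 (95% interval -1.01 to 0.42; adjusted p = 0.705) in ridaforolimus-resistant and -0.15 ± 0.31 (adjusted p = 0.928) in everolimus-resistant cells. The intervals of both CEMIP genes leave room for a change of more than 1 log2 unit in ridaforolimus-resistant cells.

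In all, edgeR called 0 of the 8 genes in ridaforolimus-resistant against parental cells, where it called 0.32% of all genes tested, and 0 of 8 in everolimus-resistant against parental cells, where it called 0.00471%. At an unadjusted p under 0.05 there were 3 of 8 in ridaforolimus-resistant cells (HAS2, CD44 and HYAL3; 14.5% of all genes) and 2 of 8 in everolimus-resistant cells (HAS2 and HYAL3; 8.79% of all genes). DESeq2 called 2, HAS2 and CD44, in ridaforolimus-resistant cells (2.7% of all genes) and 0 in everolimus-resistant cells (0.707%). Voom in limma called 0 of the 8 in both, with 0.339% of all genes called in ridaforolimus-resistant and 0.00471% in everolimus-resistant cells. Groups did not overlap for 3 of 8 genes in ridaforolimus-resistant against parental cells (49.4% of all genes), and for 3 of 8, HAS2, HAS3 and HYAL3, in everolimus-resistant against parental cells (41.1%), shares that are no higher than those of all genes. HAS2 counts toward these shares and was picked for its difference between the resistant lines, so the shares are not independent of that choice. The median log2 fold change of the 8 was 0.30 in ridaforolimus-resistant cells and 0.24 in everolimus-resistant cells, beside 0.01 in ridaforolimus-resistant and 0.02 in everolimus-resistant cells over all genes tested.

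Set directly against each other, the resistant lines differed most in HAS2 among the 8 genes, with a log2 value of -3.33 ± 0.50 (95% interval -4.48 to -2.18) in ridaforolimus-resistant over everolimus-resistant cells. CD44 ran the other way, at 0.80 ± 0.31 (0.09 to 1.51). The other 6 lay between -0.15 for CEMIP2 and 0.34 for CEMIP. The 2 lines did not overlap in HAS2 and CD44, which is 2 of 8 genes (41.2% of all genes did not overlap, and edgeR called 0.744% of all genes). This contrast chose the genes, so nothing is read from these values beyond their size.

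Among 67 further genes in 9 lists around hyaluronan and CD44, 51 had enough reads to be tested and edgeR called 0 in either line. At an unadjusted p under 0.05, 6 were higher and 3 lower in ridaforolimus-resistant cells (14.5% of all genes), and 1 was higher and 4 lower in everolimus-resistant cells (8.79% of all genes). DESeq2 called 4 of the 51 in ridaforolimus-resistant cells (ANK3, EZR, HAPLN2 and MSN; 2.7% of all genes) and 2 in everolimus-resistant cells (ESRP1 and TLR4; 0.707% of all genes), and limma called 0. Log2 fold changes were above 0 for 27 and below 0 for 24 in ridaforolimus-resistant cells, and above 0 for 13 and below 0 for 38 in everolimus-resistant cells. The median over all genes tested was 0.01 in ridaforolimus-resistant and 0.02 in everolimus-resistant cells, and both comparisons use the same 2 parental libraries.

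**Figure D5:**
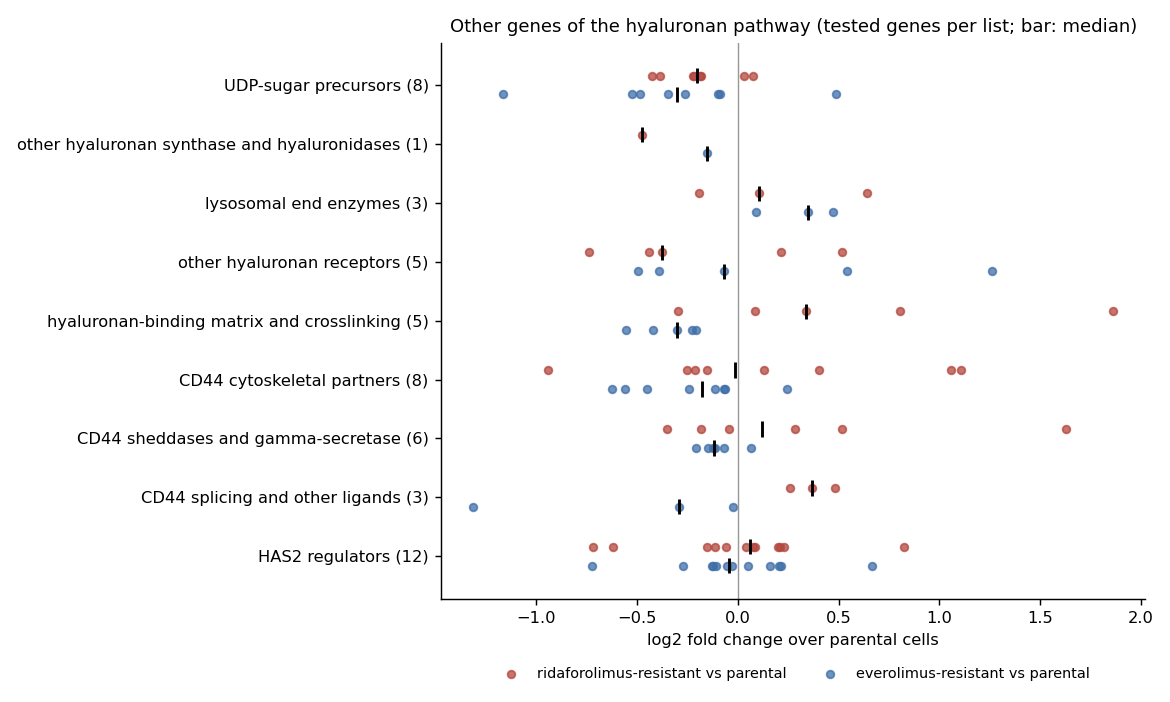
Log2 fold change over parental cells (x axis) of every tested gene in the 9 lists (y axis, number of tested genes in brackets), with ridaforolimus-resistant above everolimus-resistant cells in each list; points are genes and bars are list medians. In everolimus-resistant cells 7 of 8 precursor genes and 7 of 8 CD44 partner genes lie below 0.

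Genes that make the UDP-sugars from which hyaluronan is built mostly had log2 fold changes below 0 over parental cells. In ridaforolimus-resistant cells 3 lay wholly below the parental pair and 0 wholly above (49.4% of all genes did not overlap). In everolimus-resistant cells 6 lay wholly below and 1 wholly above (41.1% of all genes did not overlap). Of 8 tested, 6 had log2 fold changes below 0 in ridaforolimus-resistant cells (median -0.20) and 7 in everolimus-resistant cells (median -0.30), with none past the test. GFPT1, which starts the hexosamine pathway, had 325 and 137 CPM in ridaforolimus-resistant cells, 205 and 72.4 in everolimus-resistant cells, and 313 and 309 in parental cells. Its log2 fold changes were -0.43 ± 0.50 (adjusted p = 0.743) in ridaforolimus-resistant and -1.17 ± 0.51 (adjusted p = 0.566) in everolimus-resistant cells, with wide spread inside each resistant pair. UAP1, which makes UDP-N-acetylglucosamine, was at -0.39 in ridaforolimus-resistant and -0.52 in everolimus-resistant cells. PGM1, which interconverts glucose phosphates, was at -0.22 in ridaforolimus-resistant and -0.09 in everolimus-resistant cells.

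At the other end, none of the lysosomal enzymes that finish hyaluronan breakdown passed the test in either line. HEXA, a subunit of beta-hexosaminidase, was at 0.64 ± 0.23 (adjusted p = 0.278) in ridaforolimus-resistant and 0.47 ± 0.23 (adjusted p = 0.612) in everolimus-resistant cells. It had 48.9 and 56.9 CPM in ridaforolimus-resistant cells, 55.5 and 38.5 in everolimus-resistant cells, and 36.8 and 31.0 in parental cells. Neither line overlapped parental cells, and both lay above. Of the 3 enzymes tested, 2 lay wholly above and 1 wholly below parental cells in ridaforolimus-resistant cells (49.4% of all genes did not overlap). In everolimus-resistant cells 2 lay wholly above (41.1% of all genes did not overlap). The beta-glucuronidase GUSB was at -0.19 in ridaforolimus-resistant and 0.09 in everolimus-resistant cells.

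Among receptors other than CD44, TLR4 had the same placement as HAS2. TLR4, an innate immune receptor that can respond to hyaluronan fragments, had 16.6 and 19.1 CPM in ridaforolimus-resistant cells, 67.1 and 76.0 in everolimus-resistant cells, and 28.6 and 31.1 in parental cells. Neither line overlapped parental cells. The log2 fold changes were -0.74 ± 0.19 (adjusted p = 0.169) in ridaforolimus-resistant and 1.26 ± 0.19 (adjusted p = 0.205) in everolimus-resistant cells. The 5 receptors tested had a median of -0.38 in ridaforolimus-resistant and -0.07 in everolimus-resistant cells. The motility receptor HMMR was at -0.44 in ridaforolimus-resistant and -0.50 in everolimus-resistant cells, and the membrane lectin LAYN at 0.52 in ridaforolimus-resistant and -0.07 in everolimus-resistant cells.

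Most genes for proteins that bind or crosslink hyaluronan in the matrix were not expressed at a testable level: 5 of 16 were tested, and HAPLN1 and HAPLN4 had no read. The 5 had medians of 0.34 in ridaforolimus-resistant and -0.30 in everolimus-resistant cells. PTX3, a secreted pentraxin that helps crosslink hyaluronan in the cumulus matrix, had 69.3 and 125 CPM in ridaforolimus-resistant cells, 48.1 and 48.2 in everolimus-resistant cells, and 54.0 and 57.1 in parental cells. Its log2 fold changes were 0.81 ± 0.27 (adjusted p = 0.256) in ridaforolimus-resistant and -0.21 ± 0.27 (adjusted p = 0.870) in everolimus-resistant cells. The proteoglycan BCAN was at 0.34 in ridaforolimus-resistant and -0.30 in everolimus-resistant cells, and the link protein HAPLN3 at 0.09 in ridaforolimus-resistant and -0.23 in everolimus-resistant cells. HAPLN2, another link protein and singled out because DESeq2 called it, had 8.61 and 7.60 CPM in ridaforolimus-resistant cells, 2.32 and 0.727 in everolimus-resistant cells, and 1.68 and 2.75 in parental cells. In edgeR it did not pass, at 1.86 ± 0.50 (adjusted p = 0.171) in ridaforolimus-resistant and -0.55 ± 0.53 (adjusted p = 0.813) in everolimus-resistant cells.

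Of the proteins that tie the CD44 tail to the cytoskeleton, 4 of 8 lay above 0 in ridaforolimus-resistant cells (median -0.01) and 1 of 8 in everolimus-resistant cells (median -0.18), with none past the test. Moesin, MSN, which links CD44 to actin, had 1436 and 1616 CPM in ridaforolimus-resistant cells, 362 and 589 in everolimus-resistant cells, and 780 and 685 in parental cells. Its log2 fold changes were 1.06 ± 0.26 (adjusted p = 0.149) in ridaforolimus-resistant and -0.62 ± 0.26 (adjusted p = 0.549) in everolimus-resistant cells. Its relative ezrin, EZR, had 243 and 185 CPM in ridaforolimus-resistant cells, 235 and 324 in everolimus-resistant cells, and 447 and 376 in parental cells. It was below both parental libraries in all 4 resistant ones, at -0.94 ± 0.24 (adjusted p = 0.158) in ridaforolimus-resistant and -0.56 ± 0.24 (adjusted p = 0.561) in everolimus-resistant cells. The scaffold IQGAP1 was at -0.25 in ridaforolimus-resistant and -0.24 in everolimus-resistant cells. Ankyrin ANK3, singled out because DESeq2 called it, had 29 and 41.4 CPM in ridaforolimus-resistant cells, 13.2 and 10.8 in everolimus-resistant cells, and 15.6 and 17.1 in parental cells. In edgeR it was at 1.11 ± 0.25 (adjusted p = 0.120) in ridaforolimus-resistant and -0.45 ± 0.25 (adjusted p = 0.651) in everolimus-resistant cells.

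MSN lies on chromosome X between 60 and 90 Mb, a stretch known from earlier results of these data to be high in ridaforolimus-resistant cells. There 95 of 96 tested genes were above 0 in ridaforolimus-resistant over parental cells (median 1.43), against 45 of 96 in everolimus-resistant over parental cells (median -0.01). OGT, an enzyme that adds N-acetylglucosamine to proteins including HAS2, lies there too. It had 733 and 705 CPM in ridaforolimus-resistant cells, 432 and 239 in everolimus-resistant cells, and 422 and 390 in parental cells, with log2 fold changes of 0.83 ± 0.28 (adjusted p = 0.257) in ridaforolimus-resistant and -0.27 ± 0.28 (adjusted p = 0.823) in everolimus-resistant cells. The part of this stretch in the values of MSN and OGT was not tested.

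The proteases that shed CD44 from the surface and cut its tail, 6 in number, had medians of 0.12 in ridaforolimus-resistant and -0.12 in everolimus-resistant cells. MMP14, a membrane-bound matrix metalloproteinase, was at 0.52 ± 0.23 (adjusted p = 0.360) in ridaforolimus-resistant and -0.12 ± 0.23 (adjusted p = 0.916) in everolimus-resistant cells. The sheddase ADAM10 was at -0.05 in ridaforolimus-resistant and 0.07 in everolimus-resistant cells, and the gamma-secretase subunit NCSTN at -0.35 in ridaforolimus-resistant and -0.21 in everolimus-resistant cells. Of the CD44 splicing factors and other ligands, ESRP1, which promotes inclusion of the variable CD44 exons, had 12.8 and 11.2 CPM in ridaforolimus-resistant cells, 3.26 and 3.64 in everolimus-resistant cells, and 9.78 and 7.40 in parental cells. Neither line overlapped parental cells, and the log2 fold changes were 0.48 ± 0.27 (adjusted p = 0.457) in ridaforolimus-resistant and -1.31 ± 0.29 (adjusted p = 0.307) in everolimus-resistant cells. ESRP2, a related factor, was at 0.26 in ridaforolimus-resistant and -0.02 in everolimus-resistant cells, and the proteoglycan ligand SRGN at 0.37 in ridaforolimus-resistant and -0.29 in everolimus-resistant cells.

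The 12 genes known to act on HAS2 transcription or enzyme activity had a median of 0.06 in ridaforolimus-resistant and -0.04 in everolimus-resistant cells, with none past the test. SP1 and YY1, which bind the HAS2 promoter, had small values with narrow errors, SP1 at -0.06 ± 0.18 in ridaforolimus-resistant and -0.03 ± 0.18 in everolimus-resistant cells and YY1 at 0.04 ± 0.17 in ridaforolimus-resistant and 0.05 ± 0.17 in everolimus-resistant cells. STAT3, singled out after its values were seen, had 123 and 153 CPM in ridaforolimus-resistant cells, 153 and 122 in everolimus-resistant cells, and 229 and 225 in parental cells. All 4 resistant libraries were below the parental pair, at -0.72 ± 0.21 (adjusted p = 0.192) in ridaforolimus-resistant and -0.73 ± 0.21 (adjusted p = 0.439) in everolimus-resistant cells. Over all genes, 49.4% did not overlap parental cells in ridaforolimus-resistant cells and 41.1% in everolimus-resistant cells, against the same parental pair. The share with all 4 resistant libraries on the same side, as for STAT3, HYAL3, EZR and HEXA, was not counted.

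The genes most like HAS2 across the 6 libraries were found among 13495 expressed genes by the root-mean-square distance of centred log2 CPM. They were SORBS2 (distance 0.276), CCDC8 (0.321), DENND2A (0.437), FST (0.438) and GATA3 (0.468). SORBS2 had 0.305 and 0.731 CPM in ridaforolimus-resistant cells, 4.42 and 5.95 in everolimus-resistant cells, and 1.68 and 2.61 in parental cells. FST, follistatin, had 3.81 and 2.48 CPM in ridaforolimus-resistant cells, 14.1 and 35.4 in everolimus-resistant cells, and 6.57 and 9.09 in parental cells. For CD44 the nearest were PCDH9 (0.0842), TMOD1 (0.0961), CFAP299 (0.109), HTRA3 (0.119) and XDH (0.146). PCDH9 had 8.46 and 11.5 CPM in ridaforolimus-resistant cells, 3.98 and 8.0 in everolimus-resistant cells, and 4.58 and 4.09 in parental cells, with replicate 2 above replicate 1 in both resistant lines, as for CD44. The likeness rests on 6 libraries that all these genes share, and for some of them on few reads. TMOD1 had 8 to 32 reads per library and DENND2A 1 to 94, beside 1897 to 5812 for CD44.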

How the data were processed

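The deposited values are unnormalised read counts for each Ensembl gene in each library, per the file headers. Libraries were made with Illumina's TruSeq Stranded mRNA kit, per the labels' protocols. The submitters' processing notes list, without roles, HTSeq 0.13.5, STAR 2.7.9a, Trim Galore 0.6.6, DESeq2 and build GRCh38 (hg38); the sources used here give neither a strand setting nor an annotation release.

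Of 69292 gene IDs, 62625 matched a symbol and 58279 a GENCODE 29 position, which gave coordinates, overlaps and exon lengths (the union of a gene's exons); 28459 had no count. The test was edgeR 4.0.16 (R 4.3.3): filterByExpr, TMM, glmQLFit and glmQLFTest on a model of the 3 groups over 6 libraries (3 residual degrees of freedom), two-sided, Benjamini-Hochberg adjusted over 21223 genes, with a threshold of 0.05. Where no tool is named, an adjusted p-value is edgeR's. Fold changes are log2, resistant over parental unless stated, ± SE. CPM use library sizes scaled by TMM. DESeq2 1.42.0 gave no adjusted p for 2058 genes (ridaforolimus) and 3704 (everolimus). limma 3.58.1 (voom), RLE and upper-quartile scaling, no filter, a filter of 5 CPM in 2 libraries, only the groups compared, the replicate number as a block and leaving out each library were also tried.

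Genes, lists and rules were chosen with earlier results of these data known. Named by rule were all 8 genes, HAS2-AS1, called genes and the 3 most abundant of each list, the 3 nearest tested protein-coding genes on each side of HAS2, and the 5 genes most like HAS2 or CD44 (mean of at least 1 CPM; prior count of 2). ANK3, HAPLN2 and STAT3 fall outside it. One gene that the rule names is not reported here. Replicates of a group differed far beyond sampling noise (chi-square per degree of freedom 14.7 to 37.3), so none was one library deposited as a pair. Intervals and the floor of 3 counts for a gene at 0 cover counting error only. No sequences are shown.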

Additional observations from a re-analysis of the deposited data

Results flagged for a closer look

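For 9 of the named genes, both libraries of one resistant line lay above and both of the other lay below the parental pair. The difference between the lines was not tested for any of them, since that contrast chose the set. Log2 values are ridaforolimus-resistant over everolimus-resistant cells. HAS2 was at -3.33, TLR4 at -2.0, SNTB1, a neighbour of HAS2, at -0.69, SORBS2 at -3.3 and FST at -2.97, all high in everolimus-resistant cells. SORBS2 and FST were named for their likeness to HAS2, so their placement is not independent of that choice. CCDC8, DENND2A and GATA3, named by the same likeness, did not have it, as their everolimus-resistant libraries overlapped the parental pair. PTX3 was at 1.01, MSN at 1.68, ESRP1 at 1.79 and ANK3 at 1.56, all high in ridaforolimus-resistant cells. Of all 21223 genes tested, 1114 (5.25%) had such a placement in either direction. The HAS2 value was between -3.81 and -2.60 when single libraries were left out.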

How the results depend on the processing

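Counts of genes called moved most. In ridaforolimus-resistant against parental cells (68 genes), DESeq2 called 574, no filter 1195, only the groups compared 127, and leaving out a library 1 to 276 (1 without either parental replicate, 2 and 56 without ridaforolimus-resistant replicates 2 and 1, 276 and 236 without everolimus-resistant replicates 1 and 2). In everolimus-resistant against parental cells (1 gene), DESeq2 called 150, no filter 493, and upper-quartile scaling, the 5 CPM filter and only the groups compared 0 each, with 0 to 3 when a library was left out. Between the resistant lines (158 genes), DESeq2 called 657, no filter 1362, the 5 CPM filter 81, only the groups compared 0, and leaving out a library 19 to 123. Of the 8 hyaluronan genes in ridaforolimus-resistant cells, DESeq2 and no filter each called 2, and leaving out a library 0 to 1.

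HAS2 in ridaforolimus-resistant over parental cells was -2.17 by DESeq2 and -2.16 with no filter (past the threshold in both), and -2.46 to -1.90 with a library left out. CD44 was 1.23 by DESeq2 and with no filter, and 0.97 to 1.45 with a library left out. In everolimus-resistant cells the ranges with a library left out were 0.44 to 1.66 for HAS2 and -0.0431 to 0.79 for CD44. CEMIP in everolimus-resistant cells changed sign at values near 0: -0.000849 by DESeq2, -0.000767 with RLE, -0.00291 with no filter and -0.00214 with only the groups compared. With a library left out, signs also changed for CEMIP (-0.23 to 0.26 in everolimus-resistant, -0.48 to 0.86 in ridaforolimus-resistant cells), CEMIP2 (-0.31 to 0.0296 in everolimus-resistant, -0.86 to 0.10 in ridaforolimus-resistant cells), HYAL1 (-0.37 to 0.0721 in everolimus-resistant cells) and HYAL2 (-0.22 to 0.54 in everolimus-resistant, -0.16 to 0.57 in ridaforolimus-resistant cells). The causes were not tested. HYAL1 and HYAL3 gave no value under the 5 CPM filter.

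The replicate numbers showed no pairing shared by all 3 groups. Deviations of same-numbered libraries correlated at 0.329 between everolimus-resistant and parental cells. They correlated at -0.167 between ridaforolimus-resistant and parental cells and at -0.186 between the resistant lines. With the replicate number as a block, 28, 0 and 49 genes were called in the ridaforolimus, everolimus and direct comparisons, none of the 8 among them against parental cells. HAS2 was then at -2.17 in ridaforolimus-resistant and 1.09 in everolimus-resistant over parental cells, and CD44 at 1.19 in ridaforolimus-resistant and 0.37 in everolimus-resistant cells.

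With 2 libraries per group and a spread pooled over groups, a lone library left in a group is assumed to vary like the others. HAS2 rests on 11 and 17 reads in ridaforolimus-resistant cells and HAS1 and HAS2-AS1 on few reads throughout. The smallest difference that these libraries can show was not measured.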
